A study of Mus musculus with 13 samples.

Results

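MHC class II and its chaperones were followed here through 7 genes, all found by Ensembl gene ID among the 55487 genes of the table: H2-Aa, H2-Ab1 and H2-Eb1, which encode chains of the peptide-binding molecules, Cd74, which encodes the invariant chain, H2-DMa and H2-DMb1, the 2 chains of the peptide editor H2-DM, and Ciita, which encodes the class II transactivator. RNA came from CD11b-selected cells, labelled as microglia, of whole brain from unperfused mouse pups with the meninges removed, at postnatal day 4 by the titles (days 3 to 5 by the series text). Pups whose dams had undergone maternal immune activation (MIA) were compared with control pups (CON), each group having 5 retained libraries; the titles of CON 6, MIA 6 and MIA 7 mark these 3 as excluded. The sources used here give neither the activating agent nor the strain, sex or litter, nor whether a library holds 1 pup or several, so p-values measure the spread between these libraries. Bead selection for CD11b takes other CD11b-positive cells as well as microglia.

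Class II molecules display peptides from the endosome to CD4+ T cells. A new α and β chain pair travels to the endosome with its groove blocked by the invariant chain; cathepsins trim the invariant chain to a short remnant, and H2-DM then swaps that remnant for other peptides, held in check by the related H2-DO. Ciita switches the set on by joining the factors RFX, CREB and NF-Y at a shared promoter module, and interferon gamma is its classical inducer. Resting microglia carry little surface class II, while border-associated macrophages and dendritic cells of the brain's coverings carry more.

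Total counts ran from 25387055 to 35593541 per library, and levels are given as CPM, counts relative to library size scaled by TMM. A gene with 0 counts could be as high as 0.0873 to 0.117 CPM (3 counts), depending on the library. Of 15511 genes tested with edgeR at a Benjamini-Hochberg threshold of 0.05, 10.3% were called in the MIA against CON comparison, 4.58% as lower and 5.75% as higher. The 10 microglia markers, among them Csf1r and Cx3cr1, were present in all libraries at a summed 15200 to 29700 CPM. Their sum was 23200 to 29700 CPM in the retained CON and 15200 to 19700 CPM in the retained MIA libraries, while that of 10 endothelial markers was 872 to 1450 against 2630 to 4420 CPM. CON 1 and CON 2 stood apart in the 10 dissociation genes, at 2320 and 2130 CPM against 5680 to 9390 CPM in the other 8 retained libraries.

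The class II genes share a promoter module, and its letters are shown for the genes whose levels are compared below. RefSeq promoters (GRCm38.p6, 250 bases before to 50 after a start) were at hand for 7 of 10 class II genes looked up, and each of 6 of them held the Y box TGATTGG, to which NF-Y binds, 45 to 92 bases before the start. Sequences run 5′ to 3′ along the gene's strand, with the Y box and, where present, the X-box letters AACNNATGA or the CRE-like TGACGTCA in capitals.
H2-Aa (chr17:34287857-34287918, minus strand): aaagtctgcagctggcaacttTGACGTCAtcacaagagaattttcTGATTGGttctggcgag
H2-Eb1 (chr17:34305761-34305822, plus strand): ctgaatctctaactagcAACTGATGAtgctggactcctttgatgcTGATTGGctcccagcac
H2-DMb2 (chr17:34145112-34145173, plus strand): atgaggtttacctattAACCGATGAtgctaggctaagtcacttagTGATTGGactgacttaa
H2-Ob (chr17:34238801-34238862, plus strand): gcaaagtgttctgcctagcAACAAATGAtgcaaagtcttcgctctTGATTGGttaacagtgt
H2-DMb1 (chr17:34153115-34153144, plus strand): ctgattcactcagTGATTGGtctgacctgc
H2-Oa (chr17:34092321-34092350, plus strand): cagagaactgctcTGATTGGctgcttaccg
For H2-DMb1 and H2-Oa only 30 bases are printed, because the window runs into an annotated exon. H2-DMb1 also holds AACNNATGA, 92 bases before its start. On either strand, TGATTGG was found in 7.82% of all 32851 RefSeq promoters, AACNNATGA in 2.85% and TGACGTCA in 1.79%. AACNNATGA at most 45 bases before TGATTGG stood in 12 of 32851 promoters, 4 of them those of H2-Eb1, H2-DMb1, H2-DMb2 and H2-Ob; the letters searched were chosen by reading these promoters, so the count describes the module and tests nothing. The 2 promoters listed for H2-DMa held none of the 3 motifs, which says only that these letters are not in those windows.

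The peptide-binding chains were present in every library and did not separate the groups. H2-Aa, the α chain of the I-A molecule, was at 4.10, 9.45, 11.1, 13.4 and 17.7 CPM in CON 1 to CON 5 and at 12.7, 12.6, 4.04, 14.4 and 14.4 CPM in MIA 1 to MIA 5. The lowest CON and the lowest MIA library lay at about the same level, and the ranges overlapped over nearly their whole width. Its partner H2-Ab1, the β chain of I-A, was at 8.89, 14.9, 17.5, 14.6 and 26.3 CPM in CON and 16.1, 16.4, 11.6, 16.9 and 19.8 CPM in MIA. H2-Eb1, the β chain of I-E, was at 2.58, 6.76, 10.4, 9.50 and 19.1 CPM in CON and 10.5, 12.7, 3.29, 9.94 and 11.6 CPM in MIA. In all 3 genes CON 1 was the lowest and CON 5 the highest control, a span of 4.32-fold for H2-Aa, 2.96-fold for H2-Ab1 and 7.40-fold for H2-Eb1, and MIA 3 was the lowest MIA library. The log2 fold changes of MIA over CON were 0.06 ± 0.39 for H2-Aa, −0.02 ± 0.24 for H2-Ab1 and −0.01 ± 0.48 for H2-Eb1 (SE, n = 5 per group; edgeR adjusted p of 0.952, 0.971 and 0.994). The signs of these differences depended on single libraries and on scaling. With these errors a change in H2-Aa or H2-Eb1 of the size seen in H2-DM below could not be told from none. In H2-Ab1, with an SE of 0.24, such a change might not have passed the adjusted threshold either.

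**Figure D1:**
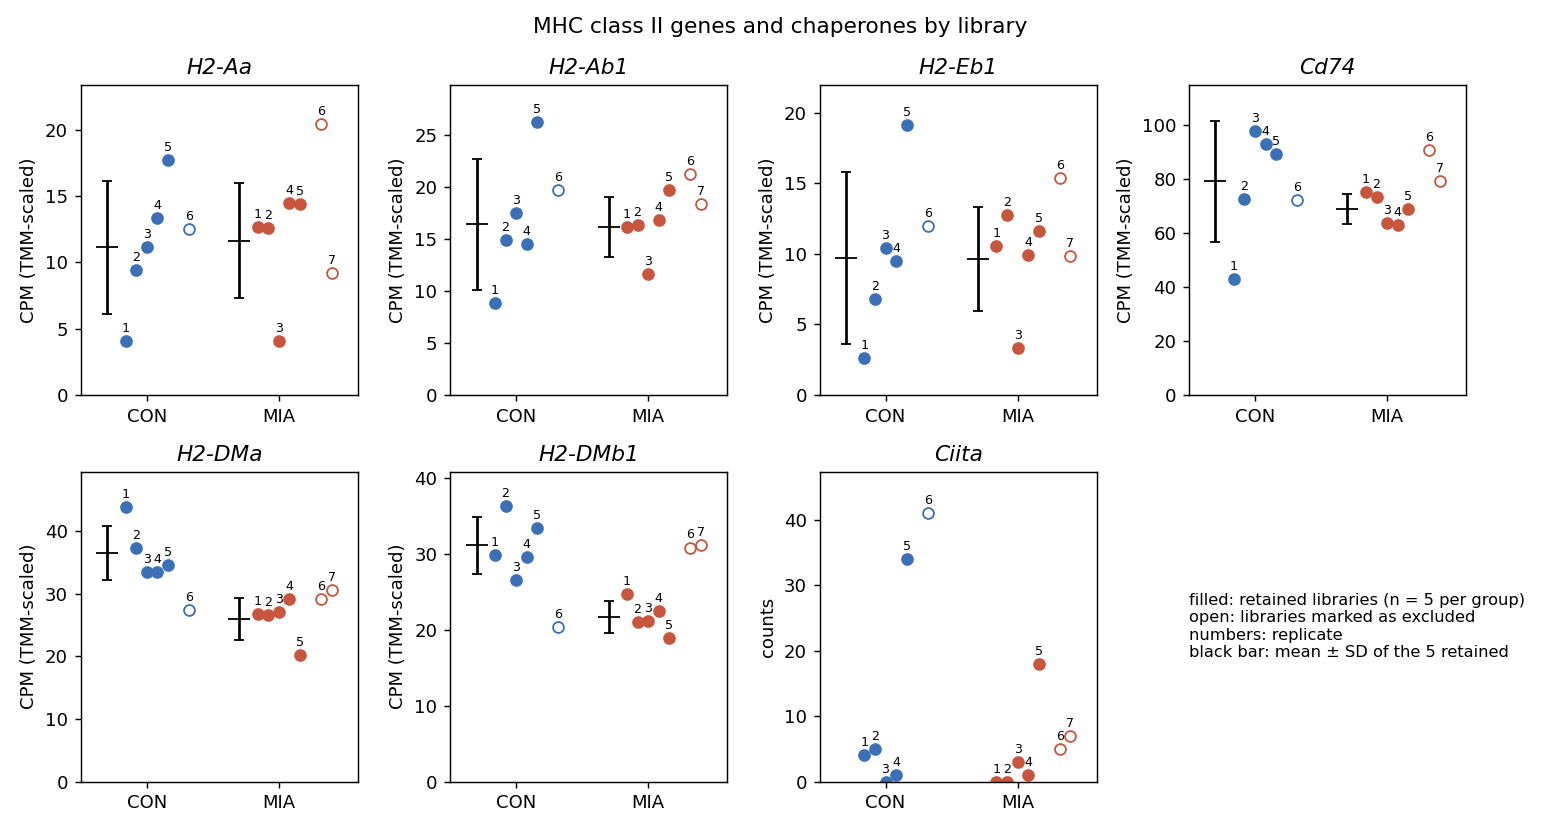
Level of each gene in each library, in TMM-scaled CPM (raw counts for Ciita), with CON in blue and MIA in red, retained libraries filled, excluded ones open and replicate numbers beside the points; black bars are the mean ± SD of 5 libraries. CON 1 and MIA 3 are lowest for the 3 peptide-binding chains, while for H2-DMa and H2-DMb1 the 5 retained MIA libraries lie below the 5 retained CON libraries.

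Cd74, which encodes the chaperone that escorts and blocks new class II pairs, was the most abundant member also per length. Divided by the summed length of its annotated exons (GENCODE M21), the level was 47.1 ± 13.3 CPM per kb in the controls and 41.0 ± 3.30 in the MIA libraries (n = 5 each, ± SD), against 2.93 ± 1.32 for H2-Aa, 6.39 ± 2.47 for H2-Ab1 and 4.98 ± 3.14 for H2-Eb1 in CON. By library it was at 42.9, 72.5, 97.5, 93.0 and 89.3 CPM in CON 1 to CON 5 and at 75.2, 73.4, 63.8, 62.9 and 68.7 CPM in MIA 1 to MIA 5. CON 1 lay below every retained MIA library and CON 3, CON 4 and CON 5 above every retained one. Of the excluded libraries, CON 6 was at 72.1, MIA 6 at 90.7 and MIA 7 at 79.2 CPM. The log2 fold change was −0.20 ± 0.18 (SE; edgeR adjusted p = 0.581). Without CON 1 it was −0.36 with an edgeR adjusted p of 0.0213. Without CON 1 and CON 2 it was −0.45 with an adjusted p of 0.00390. Among the retained libraries, 1 control thus decided whether Cd74 was called lower. With all 13 libraries Cd74 was not called (log2 fold change −0.09, edgeR adjusted p = 0.82). Nor was it with all 13 except CON 1 and CON 2 (−0.27, adjusted p = 0.179).

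The H2-DM chaperone fell in the MIA libraries. H2-DMa, its α chain, was at 43.8, 37.3, 33.5, 33.5 and 34.6 CPM in CON 1 to CON 5 and at 26.7, 26.5, 27.1, 29.2 and 20.2 CPM in MIA 1 to MIA 5. H2-DMb1, its β chain, was at 29.8, 36.2, 26.5, 29.6 and 33.4 CPM in CON and at 24.7, 21.1, 21.2, 22.5 and 18.9 CPM in MIA. Both were lower in each of the 5 MIA libraries than in any retained control, a separation that 4.36% of all tested genes showed in this direction. The log2 fold change was −0.49 ± 0.12 for H2-DMa, a ratio of 0.711 (SE; edgeR adjusted p = 0.0150), and −0.52 ± 0.11 for H2-DMb1, a ratio of 0.697 (SE; edgeR adjusted p = 0.00809). Of the 7 members 6 passed the filter on low counts, and of these 2 were lower and none higher, beside 4.58% of all genes lower. The median log2 fold change of the 6 was −0.11, beside −0.01 over all tested genes.

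Each H2-DM call held in the 10 fits that left out 1 retained library (edgeR adjusted p up to 0.0364 for H2-DMa and 0.0295 for H2-DMb1), and both calls were lost once the excluded libraries entered. CON 6 was at 27.4 CPM for H2-DMa and 20.4 CPM for H2-DMb1, inside the MIA range, while MIA 6 was at 29.1 and 30.8 CPM and MIA 7 at 30.6 and 31.2 CPM, so that H2-DMb1 in both lay above 3 retained controls. With all 13 libraries the log2 fold change was −0.37 for H2-DMa (edgeR adjusted p = 0.0643) and −0.27 for H2-DMb1 (adjusted p = 0.319).

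H2-DMb1 has a neighbour of near-identical sequence, H2-DMb2, and the counting split reads between them. The deposited H2-DMb1 value was not a whole number in 12 of 13 libraries, whereas its sum with H2-DMb2 was whole in 13 of 13 (within 0.005 counts), with 87.8 to 96.7% of the sum given to H2-DMb1. H2-DMb2 was at 2.46 to 4.17 CPM in CON and 0.634 to 2.44 CPM in MIA and did not pass (log2 fold change −0.85 ± 0.35, SE; edgeR adjusted p = 0.159). Summed into 1 gene, the pair differed by −0.55 on the log2 scale (edgeR adjusted p = 0.00490), an alternative chosen after the values were seen.

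Ciita, the master coactivator of the set, was near the limit of detection and was not tested. Its counts were 4, 5, 0, 1 and 34 in CON 1 to CON 5, 0, 0, 3, 1 and 18 in MIA 1 to MIA 5, and 41, 5 and 7 in CON 6, MIA 6 and MIA 7. CON 5 and CON 6 held most of the reads, and CON 5 was also the control with the highest H2-Ab1 and H2-Eb1. The summed peptide-binding chains were at 44.2 CPM in CON 6, which had 41 Ciita counts, and at 57 CPM in MIA 6, which had 5. Fitted without a filter, the log2 difference of Ciita was −0.86 ± 1.28 SE with an edgeR adjusted p of 0.766, so no difference was detectable at this depth.

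Ratios within a library, which no scaling affects, did not pass a test between the groups. The ratio of H2-Aa to H2-Ab1 counts was 0.462 to 0.917 in CON and 0.349 to 0.856 in MIA, and the log2 ratio differed by 0.04 (2-sided exact permutation p = 0.905, n = 5 per group; adjusted p = 0.905 over 3 ratios). H2-DMa to H2-DMb1 was 1.03 to 1.47 in CON and 1.07 to 1.30 in MIA, a log2 difference of 0.02 (exact permutation p = 0.825; adjusted p = 0.905). Cd74 to the sum of the 3 chains was 1.42 to 2.75 in CON and 1.5 to 3.36 in MIA, a log2 difference of −0.23 (exact permutation p = 0.437; adjusted p = 0.905). The smallest p that 5 against 5 libraries allow is 0.00794. Across the 2 kinds of molecule the libraries differed more: the summed CPM of both H2-DM chains over that of the 3 peptide-binding chains ran from 1.08 in CON 5 to 4.73 in CON 1 and from 0.855 in MIA 5 to 2.55 in MIA 3. The highest ratios thus belonged to the libraries lowest in H2-Aa, and the groups overlapped.

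Over the 13 libraries the 2 H2-DM genes did not follow the joint level of the peptide-binding chains and Cd74. Likeness was measured as Pearson's r of log2 CPM with the mean standardised level of H2-Aa, H2-Ab1, H2-Eb1 and Cd74. It was 0.846 (Cd74) to 0.981 (H2-Eb1) for those 4, −0.35 for H2-DMa and 0.08 for H2-DMb1. Each of the 4 is part of the mean, which raises its own r, so the 4 cannot be ranked against H2-DM by this measure. Without CON 1 and MIA 3, the 2 libraries farthest from the median of that mean, it was 0.591 for Cd74, 0.790 to 0.922 for the 3 chains, 0.02 for H2-DMa and 0.17 for H2-DMb1. Genes outside the set were then ranked by r, leaving out those without a symbol or with a clone or predicted-model name. The highest were Ms4a7 (0.935), Mpp1 (0.920), Orc1 (0.919), Pf4 (0.919) and Clec4n (0.914), with Spearman's rho of 0.621 to 0.896. They were picked as the top of the remaining genes among 15511 tested and are therefore given without a p. Ms4a7, a membrane protein gene, and Pf4, a chemokine gene, both stand in the marker list for border-associated macrophages; Clec4n encodes the lectin Dectin-2 of myeloid cells, and Orc1 a subunit of the replication origin complex. Without the same 2 libraries r was 0.737 for Ms4a7, 0.540 for Mpp1, 0.596 for Orc1, 0.743 for Pf4 and 0.555 for Clec4n. Ms4a7 itself was at 19.2 CPM in CON 1 and 18.4 CPM in MIA 3, and at 33.6 to 48.0 CPM in the other 11 libraries. None of the 5 genes was called between MIA and CON, beside 10.3% of all genes. They were picked for following 4 genes that were themselves not called, so this adds no separate result.

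Marker sums were read beside these levels, and their part in the results was not tested. The 10 border-associated macrophage markers, led by Mrc1, Stab1 and F13a1, summed to 2020 CPM in CON 1 and 1290 CPM in MIA 3, against 2330 to 2970 CPM in the other retained controls and 2370 to 2880 CPM in the other retained MIA libraries. Thus the 2 libraries lowest in the 3 chains, at 15.6 and 18.9 CPM together, were also lowest in these markers, and CON 5, at 63.1 CPM, was the highest retained library in both. Per 1000 CPM of these markers the chains still ran from 7.71 CPM in CON 1 to 21.3 CPM in CON 5, and from 13.6 to 17.6 CPM in the MIA libraries. Per 1000 CPM of the 10 microglia markers the chains ran from 0.63 to 2.42 CPM in CON and from 0.97 to 3.01 CPM in MIA. CON 1 and MIA 3 were also the lowest libraries in the T cell markers, mostly Cd4, at 3.93 and 1.66 CPM. Of the 10 border-associated macrophage markers 1, Stab1, was called, as lower, beside 10.3% of all genes called and 4.58% lower. None of these markers was at 0. H2-DMa plus H2-DMb1 were at 60.1 to 73.6 CPM in the retained controls and 39.2 to 51.7 CPM in the retained MIA libraries, the groups being apart in the microglia marker sum as well. CON 6, MIA 6 and MIA 7 lay between the groups in that sum, at 20400, 22300 and 22900 CPM, and had 47.8, 59.9 and 61.7 CPM of H2-DM, so that CON 6 fell among the MIA libraries and MIA 7 among the controls. Per 1000 CPM of microglia markers H2-DM came to 2.63 ± 0.240 CPM in the controls and 2.69 ± 0.384 in the MIA libraries (n = 5 each, ± SD). By library it ran from 2.36 to 2.98 CPM in CON and from 2.42 to 3.36 CPM in MIA. At similar marker sums of 15400 and 15200 CPM, H2-DM was 51.7 CPM in MIA 4 and 39.2 CPM in MIA 5. With libraries scaled to the counts of those markers, which moves the median of all genes to 0.53, the log2 fold change was 0.04 for H2-DMa and 0.02 for H2-DMb1 (edgeR adjusted p of 0.814 and 0.891), and relative to that median both were lower. All 10 microglia markers had a negative log2 fold change, and 9 were called lower, beside 4.58% of all genes. Their median log2 fold change was −0.53, beside −0.49 and −0.52 for the H2-DM chains. With all 13 libraries 1 of the 10 was called, beside 659 of 15618 genes. In bulk RNA, fewer cells of a type and less RNA per cell cannot be told apart.

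**Figure D2:**
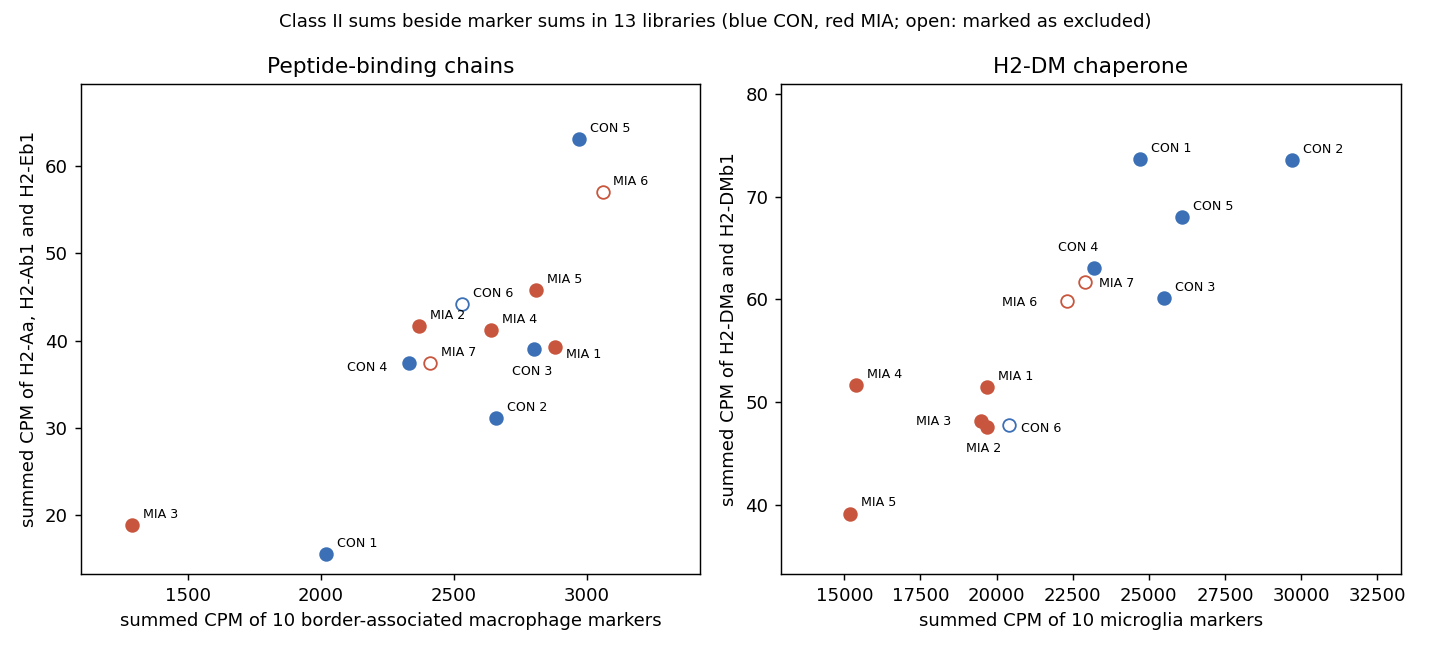
Summed CPM of H2-Aa, H2-Ab1 and H2-Eb1 against that of 10 border-associated macrophage markers (left), and of H2-DMa and H2-DMb1 against that of 10 microglia markers (right), 1 point per library, CON blue, MIA red, excluded libraries open; axes do not start at 0. CON 1 and MIA 3 lie lowest on the left, and on the right the retained MIA libraries, at 39.2 to 51.7 CPM, lie below and to the left of the retained controls.

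Markers of other cell types that bear class II, or that the selection could hold, were listed too. The 10 dendritic cell markers summed to 144 to 306 CPM in CON and 249 to 356 in MIA, mostly Fscn1 and Itgax. Of the rest, Clec10a averaged 19.1 and 18.2 CPM in the 2 groups, Batf3 4.93 and 3.24, and Cd209a 1.56 and 1.72 CPM. Flt3 averaged 0.923 and 0.449 CPM, and Xcr1 and Clec9a, which mark 1 subset of these cells, 0.668 and 0.429 and 0.479 and 0.282 CPM. Zbtb46, which endothelium also expresses, was called higher. Among 8 B cell markers, Ighm and Cd79b made up nearly all of a sum of 323 to 480 CPM in CON and 250 to 357 in MIA, and Cd79b was called lower. A defining gene of these cells was low: Pax5 averaged 0.144 CPM in the controls and 0.0600 CPM in the MIA libraries. T cell markers summed to 1.66 to 10.6 CPM over the 10 libraries, mostly Cd4, monocyte markers to 29.5 to 122 CPM, led by Ace, and neutrophil markers to 28.5 to 116 CPM, mostly S100a8 and S100a9. Of these 3 lists 2 of 8, 8 of 8 and 7 of 8 genes passed the filter on low counts and were tested. With edgeR none was called, beside 10.3% of all genes (0, 2 and 2 at an unadjusted p under 0.05 and 0, 2 and 2 with DESeq2). The 8 neuron markers summed to 54.1 to 72.4 CPM in CON and 102 to 151 in MIA, and 4 of them were called higher, beside 5.75% of all genes. No marker of any list was at 0 in all 13 libraries.

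The inhibitor of H2-DM, H2-DO, was lower as well in its α chain. H2-Oa was at 9.44, 11.6, 9.11, 10.9 and 11.3 CPM in CON 1 to CON 5 and 6.15, 6.46, 7.81, 5.17 and 8.25 CPM in MIA 1 to MIA 5, again without overlap; MIA 6, at 10.3 CPM, lay among the controls. Its log2 fold change was −0.63 ± 0.17 (SE; edgeR adjusted p = 0.0272), but the call was lost when any of CON 2, CON 4, CON 5, MIA 1, MIA 2 and MIA 4 was left out (adjusted p of 0.0576 to 0.0729) and with all 13 libraries (adjusted p = 0.105). Its β chain H2-Ob was at 9.74 to 19.99 CPM in CON and 6.70 to 12.7 CPM in MIA, which did not pass (log2 fold change −0.58 ± 0.22, SE; edgeR adjusted p = 0.120). In gene order along chromosome 17, H2-Oa, H2-DMa, H2-DMb2, H2-DMb1 and H2-Ob follow one another, ahead of H2-Ab1, H2-Aa and H2-Eb1. H2-Ea, the α chain of I-E, which some laboratory strains do not make, and H2-Eb2 had 0 counts in all 13 libraries, which allows at most 0.117 CPM in any one.

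Most enzymes that trim the invariant chain and its cargo fell in the MIA libraries. Of 7 such genes 6 were lower and none higher, beside 4.58% of all genes lower, with a median log2 fold change of −0.54 beside −0.01 over all genes. Ctss, the cathepsin that makes the last cut in the invariant chain, was at 2445 to 3386 CPM in CON and 1554 to 2016 CPM in MIA, without overlap (log2 fold change −0.64 ± 0.11, SE; edgeR adjusted p = 0.00295). Ifi30, a reductase that opens disulfide bonds of endosomal antigens, had a log2 fold change of −0.67 ± 0.09, and Lgmn, an asparagine-cutting protease, one of −0.61 ± 0.11. The lysosomal proteases Ctsb and Ctsd were both at −0.54, the latter losing its call without MIA 5 (edgeR adjusted p = 0.0542). Sppl2a, which cuts the membrane stub of the invariant chain, was at −0.32 ± 0.09 and lost its call in 7 of 10 fits without 1 library (CON 2, CON 5 or any MIA library; adjusted p up to 0.0978), without both CON 1 and CON 2 (0.0554) and with total counts (0.0782). Ctsl, a related cathepsin, averaged 2730 ± 644 CPM in the controls and 1953 ± 262 in the MIA libraries (n = 5 each, ± SD) and did not pass with edgeR (adjusted p = 0.0862). It passed with DESeq2 (adjusted p = 0.0207) and, in edgeR, without CON 1 (adjusted p = 0.00131). These proteases serve the whole lysosome and not class II alone. With all 13 libraries 1 of the 7, Ifi30, was called, beside 659 of 15618 genes. With scaling to microglia markers none of the 7 was, beside 7602 of 15511 genes.

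**Figure D3:**
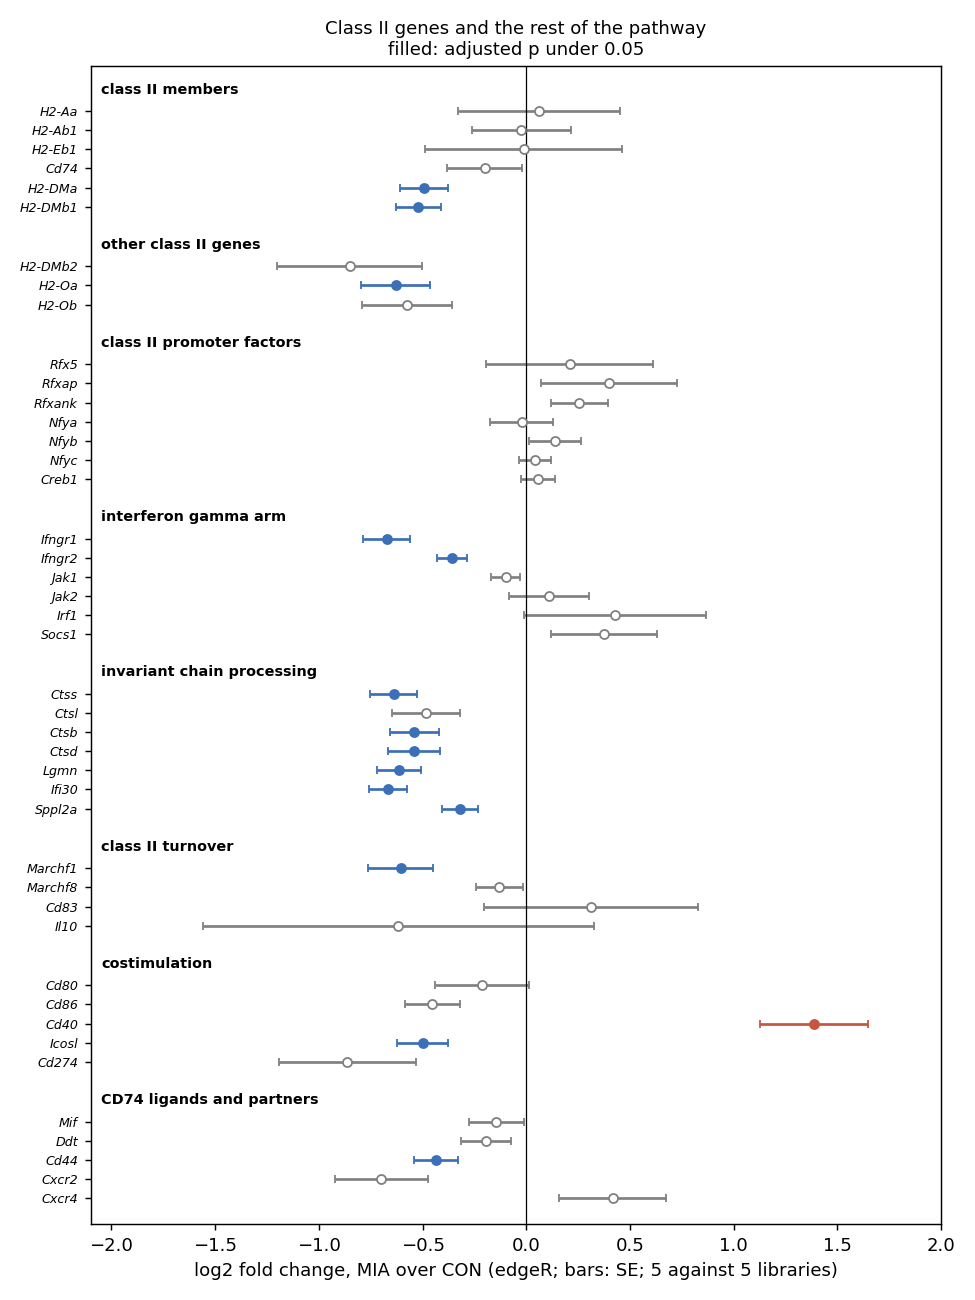
Log2 fold change of MIA over CON with its SE for the tested class II genes and for other pathway genes as labelled, grouped by role; filled points passed edgeR's adjusted threshold, blue lower and red higher. The peptide-binding chains lie near 0, H2-DM, H2-DO and the invariant chain proteases lie left of 0 under this TMM scaling (H2-DM at 0.04 and 0.02 with scaling to microglia markers), and Cd40, at 1.39, is the single filled point right of 0.

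Of the factors that build the complex at the X and Y boxes shown above, none of 7 was called by edgeR (0 at an unadjusted p under 0.05, 0 with DESeq2 and 0 with limma-voom), beside 10.3% of all genes, a share at which fewer than 1 of 7 would be called. Nfyc, an NF-Y subunit, averaged 49.2 ± 2.62 CPM in the controls and 50.7 ± 2.96 in the MIA libraries, Creb1 at 44.6 ± 3.73 and 46.4 ± 2.83, Nfyb at 24.6 ± 2.46 and 27.1 ± 4.41, and Nfya at 19.0 ± 4.20 and 18.7 ± 2.01 CPM (n = 5 each, ± SD). The median log2 fold change of the 7 was 0.14. Scaled to microglia markers, with the median of all genes shifted to 0.53, 6 were called higher, beside 7599 of all 15511 genes. In the interferon gamma arm both receptor chains fell: Ifngr1, the binding chain, went from 562 ± 98.4 to 353 ± 31.5 CPM and Ifngr2 from 165 ± 9.74 to 129 ± 9.78 CPM (log2 fold changes −0.67 ± 0.11 and −0.36 ± 0.07, SE; edgeR adjusted p of 0.00207 and 0.00654). Both also passed with all 13 libraries (adjusted p of 0.0299 and 0.0334) but not with scaling to microglia markers. The kinase gene Jak1 was at 191 ± 10.7 and 178 ± 14.3 CPM and Irf1, a factor that acts on a Ciita promoter, at 62.2 ± 37.9 and 83.8 ± 8.89 CPM, and neither passed. Without CON 1 and CON 2 the log2 fold change of Irf1 was −0.09 (edgeR adjusted p = 0.648), against 0.43 with them. Ifng itself had 0 to 9 counts per library.

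Genes that control how long class II stays on the surface, and the costimulators shown with it, did not move one way. Marchf1, a ubiquitin ligase that sends class II for degradation, averaged 56.7 ± 11.6 and 37.2 ± 7.44 CPM and was lower (log2 fold change −0.60 ± 0.16, SE; edgeR adjusted p = 0.0264), a call lost without CON 2, MIA 3, MIA 4 or MIA 5 (adjusted p of 0.0672 to 0.0769), with scaling to total counts (0.0525) and without both CON 1 and CON 2 (log2 fold change −0.39, adjusted p = 0.0974). Cd83, which opposes it, averaged 1100 ± 731 CPM in the controls and 1365 ± 207 in the MIA libraries, Marchf8, a related ligase, 39.4 ± 5.66 and 35.98 ± 3.60, and the cytokine gene Il10 5.65 ± 5.33 and 3.70 ± 1.86 CPM (n = 5 each, ± SD), none of which passed. Cd83 was at 315 and 320 CPM in CON 1 and CON 2 and at 1463 to 1870 CPM in CON 3 to CON 5. Without CON 1 and CON 2 its log2 fold change was −0.26 (edgeR adjusted p = 0.199), against 0.31 with them. For Il10 it was then −1.315 (edgeR adjusted p = 0.0504), against −0.62. Cd40, the receptor through which T cells license antigen-presenting cells, rose, from 4.24, 10.3, 7.62, 10.5 and 11.8 CPM in CON 1 to CON 5 to 20.4, 14.6, 27.0, 28.1 and 26.0 CPM in MIA 1 to MIA 5. All 5 MIA libraries lay above the 5 controls, as in 5.59% of all tested genes (log2 fold change 1.39 ± 0.26, SE; edgeR adjusted p = 0.00473). CON 6 at 14.2 and MIA 7 at 13.9 CPM lay between the groups and MIA 6, at 15.4 CPM, just inside the MIA range. With all 13 libraries it passed at 1.09 (edgeR adjusted p = 0.0328), and at 0.92 it did not once CON 1 and CON 2 were left out of those (adjusted p = 0.0728). The summed endothelial markers were higher in the same 5 libraries (2630 to 4420 against 872 to 1450 CPM), and 2200 to 2770 CPM in the 3 excluded ones; their part in the rise was not tested. Cd86, a CD28 ligand, was at 294 ± 53.6 and 215 ± 34.0 CPM (edgeR adjusted p = 0.0505, 0.00678 to 0.0199 without CON 1 or MIA 1, and 0.0115 with DESeq2), and Cd80, the other CD28 ligand, at 6.66 ± 1.75 and 5.75 ± 1.28 CPM. Icosl, the ICOS ligand, fell by 0.50 ± 0.12 on the log2 scale, a call lost without MIA 4 or MIA 5 (edgeR adjusted p of 0.0526 and 0.0513) and without both CON 1 and CON 2 (log2 fold change −0.32, adjusted p = 0.0667). The Marchf1 and Icosl calls were also lost with all 13 libraries (edgeR adjusted p of 0.0951 and 0.121) and with scaling to microglia markers (0.737 and 0.789).

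CD74 also serves as a surface receptor, and its ligand gene Mif averaged 184 ± 36.3 CPM in the controls and 167 ± 19.95 in the MIA libraries (n = 5 each, ± SD) without passing. Cd44, the signalling partner of CD74, fell from 33.0 ± 3.27 to 24.4 ± 2.92 CPM (log2 fold change −0.44 ± 0.11, SE; edgeR adjusted p = 0.0190), a call lost without CON 5 or MIA 4 (adjusted p of 0.0518 and 0.0592). The Cd44 call was also lost with all 13 libraries (edgeR adjusted p = 0.0686) and with scaling to microglia markers (0.573). The second ligand Ddt was at 14.5 ± 0.375 and 12.7 ± 1.65 CPM and the coreceptor gene Cxcr2 at 11.8 ± 4.21 and 7.28 ± 1.16 CPM. Neither passed with edgeR, and Cxcr2 passed with DESeq2 (adjusted p of 0.0687 and 0.0257). In all, 38 of 42 pathway genes outside the 7 members were tested, of which 12 were lower and 1 higher, beside 4.58% and 5.75% of all genes. Their median log2 fold change was −0.27. With all 13 libraries 3 were lower and 1 higher, beside 235 lower and 424 higher of 15618 genes. With MIA 4 left out 7 were lower and 1 higher. With scaling to microglia markers, which moves the median of all genes to 0.53, 14 were higher and 0 lower. Of all 15511 genes, 7599 were then called higher and 3 lower, so the turn was not particular to these genes.

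**Figure D4:**
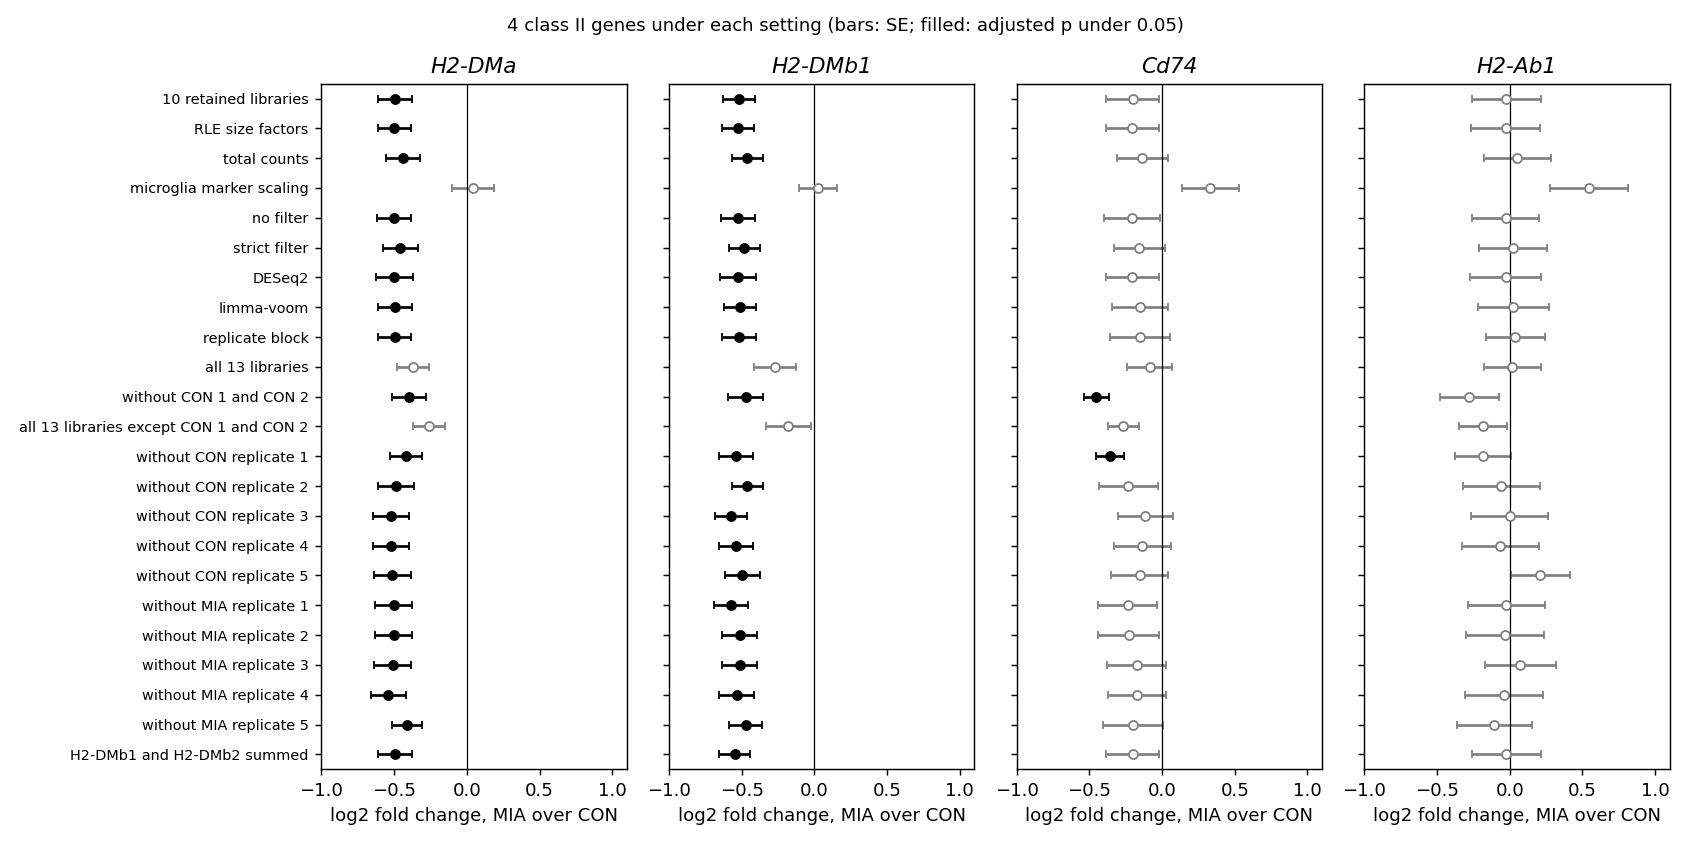
Log2 fold change of MIA over CON with its SE for H2-DMa, H2-DMb1, Cd74 and H2-Ab1 under each alternative, filled where the adjusted p was under 0.05. H2-DMa and H2-DMb1 stay filled in the 10 fits without 1 retained library and open with all 13 libraries or with scaling to microglia markers, and Cd74 fills without CON 1.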

How the data were processed

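The deposited values are expected counts, estimated per gene and not scaled across libraries. The submitters' processing notes name RSEM, STAR and DESeq2 without roles; build and annotation: not given in the sources used here. Per the labels' protocols, libraries were made with a poly(A)-primed Smart-Seq2 method and a tagmentation kit. The reads carry no molecular identifiers, so limits cover counting error only. Of values above 0, 20.6% were not whole; all were rounded (moved by at most 0.5). Symbols came from Ensembl IDs (54349 of 55487 matched with version).

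In R 4.3.3, edgeR 4.0.16 (filterByExpr, TMM, robust quasi-likelihood test, group as the only term) was fitted to the 10 retained libraries, with Benjamini-Hochberg adjustment over 15511 genes. CPM are TMM-scaled; the SE is the absolute log2 fold change over the square root of F; log2 CPM use a prior count of 2 and ratios a pseudocount of 0.5. The scripts were tested on simulated data. There the edgeR fit recovered 24.5% of 1.5-fold, 61.2% of 2-fold and 80.9% of 4-fold changes, and 7.07% of its 99 calls were false. Alternatives used limma 3.58.1 and DESeq2 1.42.0, other scalings, filters, a replicate block and other libraries. Lists were other class II genes, class II promoter factors, interferon gamma arm, invariant chain processing, class II turnover, costimulation, CD74 ligands and partners, and markers of microglia, border-associated macrophages, dendritic cells, monocytes, B cells, T cells, neutrophils, endothelium, neurons and dissociation. Named were all 7 members, pathway genes past the threshold, up to 4 abundant genes per pathway list, up to 3 per marker list, and the 5 genes most like H2-Aa, H2-Ab1, H2-Eb1 and Cd74; Irf1, Ifng, H2-Ea, H2-Eb2, Zbtb46, Clec10a, Batf3, Cd209a, Clec9a, Flt3, Xcr1 and Pax5 were added after values were seen. Some list genes the rule would name are not reported here. The members and lists were chosen with earlier results of these data known.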

Additional observations from a re-analysis of the deposited data

Results flagged for a closer look

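Each group of 5 was checked for a library whose gap to its nearest neighbour took more than 0.71 of the group's range, a limit that chance passes in about 1 of 20 groups; 46 groups were checked and 8 passed. H2-Aa was at 4.04 CPM in MIA 3, against at least 12.6 CPM in the other MIA libraries, and the log2 ratio of H2-Aa to H2-Ab1 was −1.52 there, next to −0.46. Ciita was at 1.07 CPM in CON 5, next to 0.182, and at 0.634 CPM in MIA 5, next to 0.102. The log2 ratio of Cd74 to the summed chains was 0.50 in CON 5, next to 1.22. Lgmn was at 5270 CPM in CON 2, Ifi30 at 157 CPM in CON 3, and Icosl at 22.8 CPM in MIA 3. Among the excluded libraries, H2-Aa in MIA 6, at 20.4 CPM, and Ciita in CON 6, at 1.5 CPM, lay above every retained control.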

How the results depend on the processing

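H2-DMa and H2-DMb1 were called lower under every alternative run except all 13 libraries, all 13 except CON 1 and CON 2, and scaling to microglia markers. With all 13 libraries edgeR called 659 genes (424 higher, 235 lower), 4 pathway genes and 0 members (1 at an unadjusted p under 0.05); H2-Ab1 was at 0.019, H2-Eb1 at 0.057 and the log2 ratio of H2-DMa to H2-DMb1 at −0.10. With all 13 except CON 1 and CON 2 it called 90 genes, 0 pathway genes and 0 members (2 at an unadjusted p under 0.05); H2-Aa was at −0.13, the H2-Aa ratio to H2-Ab1 at −0.066 and the H2-DM ratio at −0.083. Scaled to microglia markers, 7602 genes were called (7599 higher), with 0 members (0 at an unadjusted p under 0.05) and 14 pathway genes, all higher, and H2-Ab1 was at 0.55, H2-Eb1 at 0.55, Cd74 at 0.33, H2-DMa at 0.043, H2-DMb1 at 0.023, Ifngr2 at 0.18, Sppl2a at 0.23, Icosl at 0.048 and Cd44 at 0.11. By construction that scaling sets the marker genes, which fell, to no change. H2-Ab1 and H2-Eb1 were at 0.053 and 0.071 with total counts (1036 genes higher, 496 lower), 0.023 and 0.039 with the strict filter of 10 CPM in 5 libraries, and 0.024 and 0.066 with limma-voom. Without CON 1 and CON 2, H2-Aa was at −0.28 and its log2 ratio to H2-Ab1 at −0.14. Fits without 1 retained library called 1037 (without MIA 5; 1057 without MIA 4) to 2263 genes, 8 (without MIA 4) to 15 pathway genes and 2 to 3 members; H2-Aa ran from −0.15 to 0.29, H2-Ab1 from −0.18 to 0.21, H2-Eb1 from −0.25 to 0.39, the H2-Aa ratio from −0.085 to 0.27 and the H2-DM ratio from −0.026 to 0.10. The cause of these shifts was not tested. DESeq2 called 2174 genes and 16 pathway genes.

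Same-numbered libraries correlated at 0.06 to 0.30 in their deviations from the group mean, and the numbers are not stated to pair litters. With the replicate block 1524 genes, 12 pathway genes and 2 members were called, H2-Oa lost its call (edgeR adjusted p = 0.0547), H2-Ab1 was at 0.038 and H2-Eb1 at 0.11.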
